A study of Mus musculus with 10 samples.

Results

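The expression of 50 genes of mitosis and cytokinesis was examined in the peri-pulmonary vein part of the mouse left atrium, the atrial wall around the openings of the pulmonary veins, with and without the transcription factor gene Tbx5. The genes were chosen by name for their role in cell division, with earlier results of these data known, and were grouped into 9 roles. Each symbol matched 1 row of the 54532 genes in the count table, the row with the most counts where a symbol had several. The Ctrl group held 4 mice of the genotype R26creERT2/creERT2; Tbx5+/+, and the CKO group held 6 mice of the genotype R26creERT2/creERT2; Tbx5flox/flox. Mice of both groups carried 2 copies of a tamoxifen-inducible Cre recombinase in the Rosa26 locus, which is active in most cell types, received tamoxifen on 3 consecutive days at 6 weeks of age, and were sampled 1 week later. Deletion was therefore not limited to heart muscle cells, and whole tissue was sequenced.

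To divide, a cell condenses its chromosomes under the kinase Cdk1 and its cyclins, attaches them to a microtubule spindle through kinetochores, waits for the spindle assembly checkpoint, and degrades cyclin through the anaphase-promoting complex before the central spindle and a contractile ring split the cytoplasm. Most of these genes are transcribed from G2 to mitosis and are kept silent in resting cells by the DREAM complex, which binds the CHR element of their promoters, while NF-Y binds nearby CCAAT boxes. Adult atrial muscle cells rarely divide, and fibroblasts, endothelial cells and macrophages are the cells of the adult heart in which division is usually seen. In whole tissue, more dividing cells and more RNA per dividing cell cannot be told apart, nor can the cell type that carried the transcripts.

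CHR and CCAAT elements were searched for in the RefSeq promoter windows (GRCm38.p6, 250 bases before to 50 after the start), because most of the genes were higher in CKO and these elements are shared by mitotic promoters. CHR was searched as TTTGAA or TTCGAA and CCAAT as such, each on both strands. Windows were found for 44 of the 50 genes. A CHR match was present in 36 of the 44 genes (81.8%, 95% exact interval 67.3 to 91.8), against 21.7% of 27025 genes in the whole promoter table. CCAAT was present in 32 genes (72.7%, against 41.1%), and both were present in 30 genes (68.2%, against 8.61%). A match is a description of the letters in the window and does not show that a factor binds. The genes were chosen for their role in division, so these shares describe the list, and the interval is no test of it. Among 23 genes whose last 120 bases before the start touch no annotated exon, 5 hold both elements there. These 5 windows are printed 5′ to 3′ on the gene's strand, with the matches in capitals (TTCAAA and ATTGG are matches on the other strand, and no 2 matches overlap), because they show the arrangement of the elements in genes that were all higher in CKO.
Top2a: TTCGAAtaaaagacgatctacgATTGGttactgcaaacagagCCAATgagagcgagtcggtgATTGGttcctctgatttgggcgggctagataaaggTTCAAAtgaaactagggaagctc
Kif11: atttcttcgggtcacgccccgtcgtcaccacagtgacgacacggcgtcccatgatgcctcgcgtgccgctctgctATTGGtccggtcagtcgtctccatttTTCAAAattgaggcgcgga
Ckap2: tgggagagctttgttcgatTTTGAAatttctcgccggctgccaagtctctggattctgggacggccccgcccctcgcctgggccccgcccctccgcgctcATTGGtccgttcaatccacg
Ckap2l: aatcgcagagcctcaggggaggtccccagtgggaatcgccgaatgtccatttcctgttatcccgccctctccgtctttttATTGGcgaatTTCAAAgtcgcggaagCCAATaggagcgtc
Ect2: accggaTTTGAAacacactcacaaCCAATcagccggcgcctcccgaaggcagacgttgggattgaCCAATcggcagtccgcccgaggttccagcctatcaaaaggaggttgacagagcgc

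The windows lie at chr11:99024190-99024309 (minus strand, Top2a), chr19:37376262-37376381 (plus, Kif11), chr8:22185820-22185939 (minus, Ckap2), chr2:129297213-129297332 (minus, Ckap2l) and chr3:27153879-27153998 (minus, Ect2). In Top2a, Kif11 and Ckap2l a CHR match begins 23, 19 and 30 bases before the start, with a CCAAT box upstream of it. In Ckap2 and Ect2 the CHR match begins 101 and 114 bases before the start and the CCAAT boxes follow it. A CHR match was present in 25 of 31 genes that were called higher in CKO and in 9 of 11 that were not called.

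The libraries held 8602794 to 10040808 estimated counts, and 1 count corresponded to 0.101 to 0.113 CPM (counts scaled to depth, with library sizes adjusted by the trimmed mean of M-values). At the level of the whole gene, Tbx5 itself was not lower in CKO, at 268 ± 105 CPM (SD, n = 6) against 134 ± 31.6 CPM (SD, n = 4; edgeR adjusted p = 0.101). The third exon of its main transcript, a 95-base exon at chr5:119838696-119838790, had a coverage relative to the next exon of 0.98 to 1.21 in the Ctrl libraries and 0.195 to 0.604 in the CKO libraries, with no overlap. This exon was chosen after its values were seen. Atrial muscle transcripts were abundant in all 10 libraries (27535 to 43910 CPM summed over 8 markers). Ctrl 3 and CKO 4 also held transcripts of airway epithelium (1570 and 2339 CPM summed over 6 markers, against 0.42 to 84.4 elsewhere), and Ctrl 3, Ctrl 4 and CKO 4 held B cell transcripts (101, 192 and 124 CPM summed over 4 markers, against 0.765 to 9.5 elsewhere). The counts of called genes are given with and without these libraries, in all and by role, and the values of single genes are with all libraries unless stated.

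Mitosis and cytokinesis genes were higher in the CKO mice. With edgeR's quasi-likelihood test and Benjamini-Hochberg adjustment over 17752 genes, 36 of the 48 genes tested passed an adjusted p of 0.05 as higher in CKO and 0 as lower, against 1.54% of all tested genes called higher and 1.26% called lower. At an unadjusted p under 0.05, 46 were higher and 0 lower. Over all 17752 tested genes, at least 3001 and fewer than 3025 were under that edgeR p in either direction. DESeq2 called 43 higher and 0 lower, and 692 of all 17752 tested genes higher. The 48 genes had a median log2 fold change of 2.16, and the tested genes as a whole one of −0.03. The 36 called genes had log2 fold changes from 1.18 (Hmmr) to 5.55 (Kntc1). In 37 of the 50 genes every CKO library lay above every Ctrl library, which was so for 3.03% of all tested genes. The genes were chosen with earlier results of these data known, so these counts describe the set and are no independent test of it.

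The filter on low counts shaped which genes were tested. Plk1 and Ttk were not tested, and 28 of the 48 tested genes did not reach the filter's level of 1.07 CPM in all 4 Ctrl libraries, so that their passing the filter depended on CKO libraries too. Of these 28, 21 were called, and 10 reached the level in 3 Ctrl libraries and 10 in none. The latter 10 were Ccnb2, Melk, Kntc1, Cdca8, Kif2c, Kif4, Dlgap5, Cep55, Pimreg and Parpbp, and all but Cdca8 were called. They were tested only because of their CKO values, so their adjusted p are no independent support for a rise. Of the 20 genes that did reach it in every Ctrl library, 15 were called and the median log2 fold change was 1.68. With no filter and all 50 genes tested, edgeR called 29 higher, and 195 of 33196 over all genes. The count of 36 fell to 14 without Ctrl 2, to 16 without Ctrl 1, to 21 without Ctrl 4 and to 22 without CKO 1. Without both libraries with airway transcripts it was 24, and without the 3 libraries with B cell transcripts it was 3 (Kif11, Mki67 and Dlgap5), with a median log2 fold change of 2.24 and 2.28. That last comparison, added after seeing the data, left 2 Ctrl libraries. Over all tested genes, the number called higher was 274 of 17752 with every library. Without Ctrl 2, Ctrl 1, Ctrl 4 and CKO 1 it was 87 of 18147, 103 of 18148, 115 of 18031 and 159 of 17624. Without the airway libraries it was 254 of 17833, and without the B cell libraries 53 of 18184.

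The calls by role differed in how far they held without these libraries. Without both libraries with airway transcripts, edgeR called 3 of 6 genes of mitotic entry, 0 of 3 of mitotic exit (lowest adjusted p 0.0613), 1 of 4 of the checkpoint, 2 of 6 of the kinetochore, 0 of 3 of the passenger complex (lowest adjusted p 0.0882), 3 of 4 of chromosome structure, 7 of 12 of the spindle, 7 of 8 of cytokinesis and 1 of the 2 others. Without the 3 libraries with B cell transcripts, it called 1 of 4 genes of chromosome structure and 2 of 12 of the spindle, and in the other roles the lowest adjusted p was 0.0550 to 0.137. Over all tested genes, 254 of 17833 were called higher in the former fit and 53 of 18184 in the latter. The medians by role lay between 1.46 and 3.11 in the former fit and between 1.46 and 3.72 in the latter. Of the called genes, Kif2c and Kntc1 lost their call in 14 of the 20 alternatives that gave them a value, and Kif20b in 14, Cdca3 in 13 and Kif18b in 12 of 22. Top2a, Kif11, Kif4 and Dlgap5 each lost it in 1 of 22. Aspm, which belongs to none of these roles but to a further list of mitosis genes described below, lost its call in 0 of 22.

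**Figure D1:**
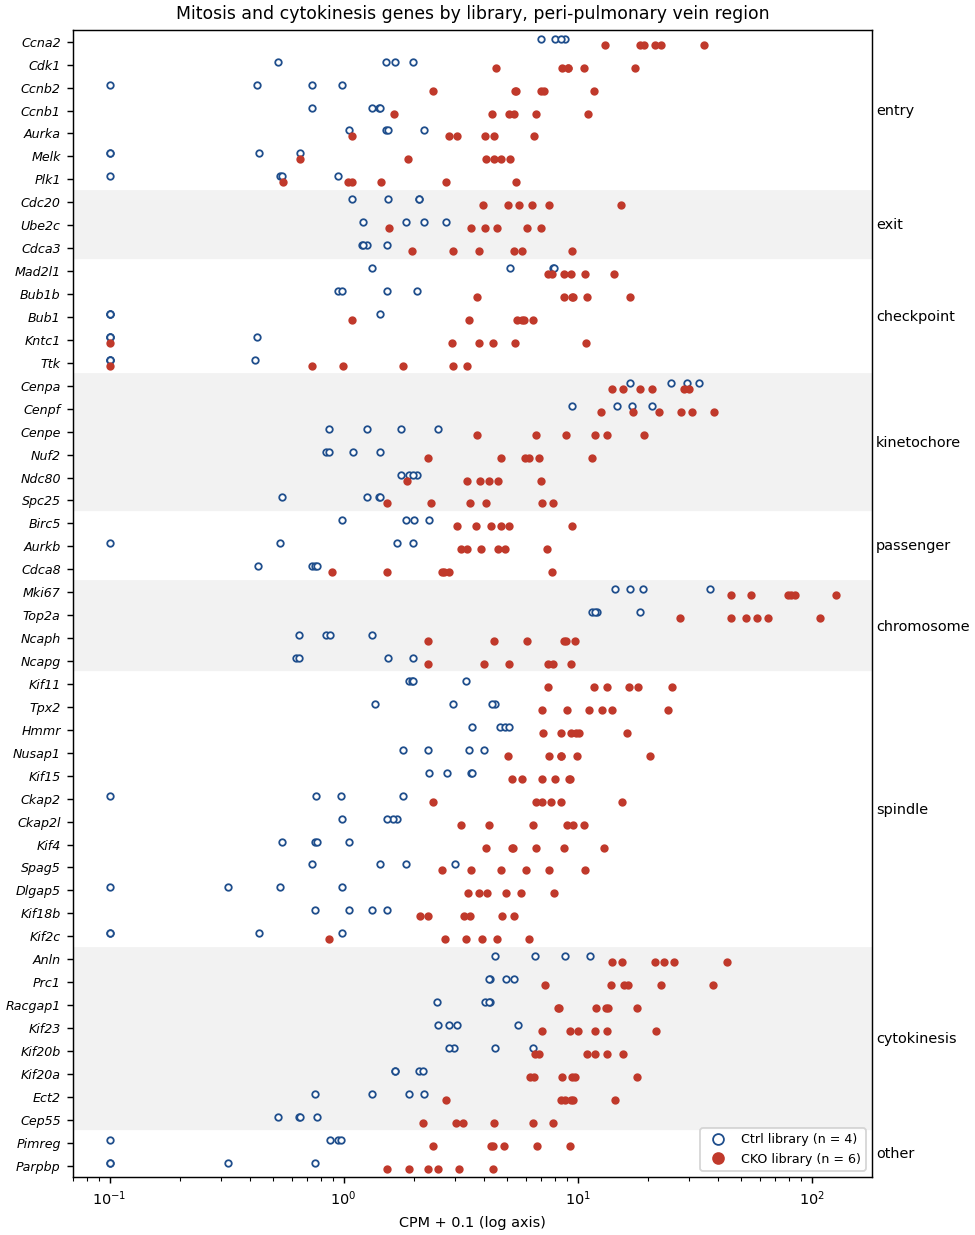
Level of each of the 50 genes in each library, as CPM + 0.1 on a log axis, grouped by role (entry into mitosis, exit from mitosis, checkpoint, kinetochore, chromosomal passenger complex, chromosome structure, spindle, cytokinesis, other). Open circles are the 4 Ctrl libraries and filled circles the 6 CKO libraries, and points at the left edge are 0 CPM. In 37 genes all filled points lie to the right of all open points.

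Within the CKO group most of the genes moved together from library to library. The Ctrl libraries showed no such shared order, with Ctrl 4 the highest of them for Top2a and the lowest for Anln. The summed level of the 50 genes was 147, 159, 158 and 182 CPM in Ctrl 1 to Ctrl 4, and 553, 409.8, 278, 556, 917 and 501 CPM in CKO 1 to CKO 6. The lowest CKO library therefore lay above the highest Ctrl library. CKO 5 had the highest value of all 10 libraries in 48 of the 50 genes, and CKO 3 had the lowest value among the CKO libraries in 44 genes. Even in CKO 3, 39 genes lay above the highest Ctrl library, and in the other CKO libraries this number was 47 to 49. Without Mki67 and Top2a, the genes with the most counts in CKO, the sums were 122 to 130 CPM in Ctrl and 206 to 682 CPM in CKO.

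Sex was not in the labels, but 5 libraries had high Xist levels and 5 had low ones. Among the high-Xist libraries the summed level was 147 and 159 CPM in Ctrl and 278 to 553 CPM in CKO. Among the low-Xist libraries it was 158 and 182 CPM in Ctrl and 501 to 917 CPM in CKO. With the Xist level as a covariate, edgeR called 37 of the genes higher, and 367 of all 17752 tested genes. The separation of the groups was thus present on each side of the Xist split.

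**Figure D2:**
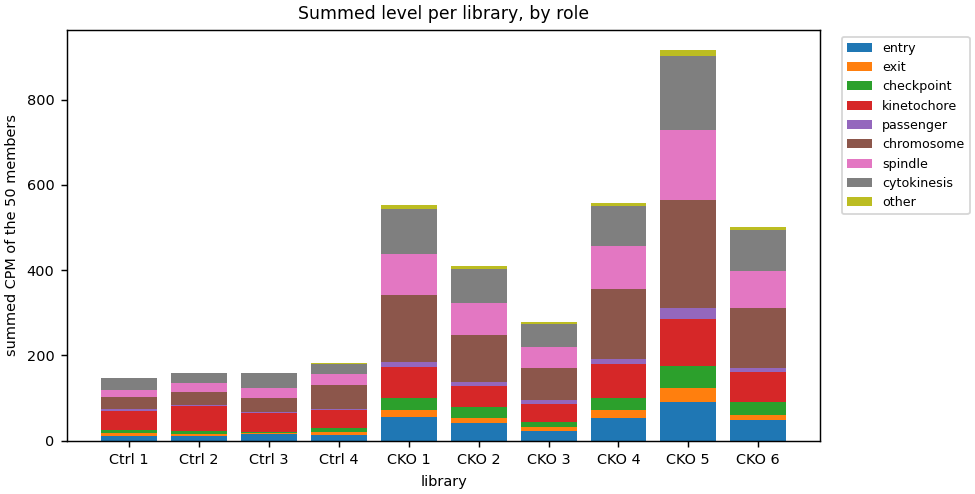
Summed CPM of the 50 genes in each library (y axis), split by role (colours), for 4 Ctrl and 6 CKO libraries. The Ctrl sums lie between 147 and 182 CPM and the CKO sums between 278 and 917 CPM, with CKO 5 highest.

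Markers of some other cells were higher in CKO, and those of others were not. The adipocyte and Schwann cell markers (4 tested in each list) had median log2 fold changes of −0.81 and −0.53. The 6 smooth muscle and pericyte markers had a median of 0.14. In 2 of 6 T cell markers every CKO library lay below every Ctrl library. In these lists edgeR called 0 markers. The 7 fibroblast markers summed to 2530 to 4270 CPM in Ctrl and 4216 to 7280 CPM in CKO, and 1 of the 7 was called higher (Postn, a matrix protein gene of activated fibroblasts). The 7 markers of macrophages and monocytes summed to 783 to 1674 CPM in Ctrl and 1091 to 2233 CPM in CKO, with 1 of 7 called higher (Cd68). The groups overlapped in the fibroblast sum and in the macrophage sum. CKO 5, the highest library for the mitotic genes, was highest in both sums. It was also highest for markers of lymphatic endothelium (343 CPM), epicardium and mesothelium (478 CPM) and adipocytes (1860 CPM), and lowest for atrial muscle (27535 CPM). The 6 markers of blood endothelium summed to 679 to 865 CPM in Ctrl and 913 to 1043 CPM in CKO, so that these sums did not overlap. By edgeR 0 of these 6 markers were called, 3 were higher at an unadjusted p under 0.05, and all 6 fold changes were positive. That unadjusted p was reached in either direction by at least 3001 of all 17752 tested genes. CKO 3, the lowest CKO library for the mitotic genes, had the lowest macrophage sum of the CKO group, at 1091 CPM, and a fibroblast sum of 4286 CPM. The lowest CKO sums for fibroblasts (4216 CPM) and blood endothelium (913 CPM) were those of CKO 4, whose mitotic genes summed to 556 CPM. Of 8 atrial muscle markers, 3 were called lower (Myl7, Myl4 and Sln) and 1 higher (Tnnt2). None of these fibroblast, macrophage, endothelial or muscle markers was at 0 in every library, and the part of cell composition in the mitotic genes' change was not tested.

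The kinases and cyclins of mitotic entry rose, with 5 of 6 tested genes called. Cdk1 (ENSMUSG00000019942, chr10:69335146-69352938, minus strand), the kinase that drives entry, had 0.423, 1.42, 1.89 and 1.55 CPM in the 4 Ctrl libraries and 10.5, 8.50, 4.39, 9.0, 17.5 and 9.04 CPM in the 6 CKO libraries. The groups did not overlap, and CKO 5 was highest and CKO 3 lowest within the CKO group. The means were 1.32 ± 0.630 CPM (SD, n = 4) and 9.82 ± 4.27 CPM (SD, n = 6), a log2 fold change of 2.89 ± 0.44 (SE) with an edgeR adjusted p of 0.00675.

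Ccnb2, a B-type cyclin that activates Cdk1, had 0.634, 0.328, 0.888 and 0 CPM in Ctrl, and 2.31 to 11.7 CPM with a median of 6.11 in CKO. Ctrl 4 had no count, every CKO library lay above every Ctrl library, and the log2 fold change was 3.76 ± 0.64 (SE, edgeR adjusted p = 0.0111). Ccna2, the cyclin A of S and G2 phase, had 7.92, 6.88, 8.77 and 8.42 CPM in Ctrl and 13 to 34.6 CPM with a median of 20.3 in CKO. Its Ctrl values were close together, and its smaller log2 fold change of 1.43 ± 0.24 (SE) had an edgeR adjusted p of 0.0108. Ccnb1, the other B-type cyclin, rose from 1.12 to 5.59 CPM on average (log2 fold change 2.30). Melk, a kinase gene of proliferating cells, was called with a log2 fold change of 3.86, although its lowest CKO value (0.549 CPM, CKO 3) lay within the Ctrl range. Aurka, the kinase of the centrosome and spindle poles, was not called (1.48 against 3.55 CPM, log2 fold change 1.26, edgeR adjusted p = 0.183). Plk1, a kinase needed from entry to cytokinesis, was under the filter, with 0 to 0.845 CPM in Ctrl and 0.452 to 5.35 CPM in CKO.

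Of the genes of mitotic exit, Cdc20 and Cdca3 were called and Ube2c was not, and neither call held without the libraries with airway transcripts (edgeR lowest adjusted p 0.0613). Cdc20, the activator of the anaphase-promoting complex, had 2.01, 0.983, 1.44 and 1.99 CPM in Ctrl and 3.84 to 15.2 CPM with a median of 5.90 in CKO. The highest value, that of CKO 5, lay well apart from the other CKO libraries, of which the highest had 7.48 CPM. The log2 fold change of Cdc20 was 2.15 ± 0.42 (SE, edgeR adjusted p = 0.0203). Cdca3, which promotes the breakdown of the inhibitor Wee1, had a log2 fold change of 1.98, and its call was lost in 13 of 22 alternatives. Ube2c, the ubiquitin-conjugating enzyme of the same complex, had 1.90 CPM against 4.34 CPM in CKO with overlapping groups (log2 fold change 1.18, edgeR adjusted p = 0.165).

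Among the spindle assembly checkpoint genes, 2 of 4 tested genes were called. Bub1b, which encodes the checkpoint protein BubR1, had 0.845, 1.97, 0.888 and 1.44 CPM in Ctrl and 3.62 to 16.6 CPM with a median of 9.44 in CKO, without overlap. Its log2 fold change was 2.92 ± 0.42 (SE, edgeR adjusted p = 0.00524). Mad2l1, which encodes the inhibitor of Cdc20, had the most counts of the checkpoint genes in Ctrl, at 7.71, 5.03, 1.22 and 7.86 CPM. Its CKO values were 7.36 to 14.2 CPM with a median of 8.94, so the groups overlapped, and it was not called (log2 fold change 0.82, edgeR adjusted p = 0.337). Bub1, the kinase that recruits the checkpoint to kinetochores, had no count in 3 Ctrl libraries and 1.33 CPM in Ctrl 4. Its CKO values were 0.988 to 6.33 CPM, and the log2 fold change of 3.75 had an SE of 0.96 and an edgeR adjusted p of 0.0673. Ttk, the Mps1 kinase, was not tested and had at most 0.317 CPM in Ctrl and 3.27 CPM in CKO.

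Kntc1 (chr5:123749716-123821593, plus strand), a subunit of the complex that brings dynein to kinetochores, had the largest fitted log2 fold change, 5.55 ± 1.27 (SE, edgeR adjusted p = 0.0430). It rested on few counts, with 3 counts in Ctrl 2 and none in the other Ctrl libraries, and 25, 35, 0, 42, 99 and 47 counts in CKO 1 to CKO 6. The ratio of the depth-scaled sums was 54.7, with a 95% interval of 18.5 to 267 that covers counting error only. Its call was lost in 9 of the 10 fits that left out 1 library. Coverage reached 15 to 43 of the 64 exons of its main transcript in the CKO libraries other than CKO 3, 3 exons in Ctrl 2 and none in CKO 3 and the other Ctrl libraries. Kntc1 lies 3.93 Mb from Tbx5 on the same chromosome. Within 10 Mb of Tbx5, 9 of 288 tested genes were called (3.12%), against 2.79% elsewhere.

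Centromere and kinetochore genes were mixed, with 2 of 6 called. Nuf2, a subunit of the NDC80 complex that holds microtubules, had 0.739, 0.765, 0.999 and 1.33 CPM in Ctrl and 2.20 to 11.5 CPM with a median of 5.98 in CKO (log2 fold change 2.67 ± 0.43 SE, edgeR adjusted p = 0.00901). Cenpe, a kinesin that moves chromosomes to the spindle equator, had 1.16, 0.765, 1.67 and 2.44 CPM in Ctrl and 3.62 to 19.2 CPM with a median of 10.3 in CKO (log2 fold change 2.80 ± 0.49 SE, edgeR adjusted p = 0.0136). The groups did not overlap in either gene. The other NDC80 subunits were not called, Spc25 at 1.06 and 4.28 CPM (edgeR adjusted p = 0.0718) and Ndc80 at 1.83 and 4.03 CPM (0.106). Cenpf, a large kinetochore protein gene, averaged 15.4 CPM in Ctrl against 24.7 CPM in CKO and was not called (log2 fold change 0.68).

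Cenpa, which encodes the histone H3 variant of centromeres, was the exception among the 50 genes. It had 25.0, 32.8, 29.2 and 16.7 CPM in Ctrl and 18.3, 13.9, 20.6, 29.7, 28.5 and 15.5 CPM in CKO. The groups overlapped throughout, and the log2 fold change was −0.30 ± 0.25 (SE, edgeR adjusted p = 0.574), the single negative value among the 48 tested genes. Per length it was the most abundant of the 50 in Ctrl, at 43.3 ± 9.0 TPM (SD, n = 4; TPM are transcript levels scaled by length and depth). Of its TPM over all libraries, 59.2% was assigned to transcripts annotated for nonsense-mediated decay, 25.8% to retained-intron transcripts and 15.0% to protein-coding ones (annotation GENCODE vM21). The protein-coding share was 0.844 to 12.7 TPM in the Ctrl libraries and 0 to 9.24 TPM in the CKO libraries.

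The chromosomal passenger complex, which corrects faulty attachments and steers cytokinesis, did not pass the threshold although its groups did not overlap. Aurkb, its kinase, had 1.58, 0.437, 1.89 and 0 CPM in Ctrl and 3.08 to 7.31 CPM in CKO (log2 fold change 2.17, edgeR adjusted p = 0.107). Birc5 (survivin) had 1.90, 1.75, 0.888 and 2.21 CPM in Ctrl and 2.97 to 9.39 CPM with a median of 4.37 in CKO (log2 fold change 1.54 ± 0.37 SE, edgeR adjusted p = 0.0537). Cdca8 (borealin) had 0.332 to 0.666 CPM in Ctrl and 0.791 to 7.64 CPM in CKO (log2 fold change 2.34, edgeR adjusted p = 0.0719). By edgeR 0 of the 3 genes were called, at an unadjusted p under 0.05 all 3 were higher, and DESeq2 called all 3 higher. The unadjusted edgeR p was under 0.05 in at least 3001 of all 17752 tested genes, in either direction.

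All 4 genes of chromosome structure rose. Top2a (ENSMUSG00000020914, chr11:98992943-99024189, minus strand), topoisomerase II alpha, which untangles sister chromatids, had 11.4, 12.0, 11.8 and 18.4 CPM in Ctrl and 58.2, 45.1, 27.3, 65.2, 108 and 52.1 CPM in CKO. The lowest CKO library lay above the highest Ctrl library, and the log2 fold change was 2.15 ± 0.34 (SE, edgeR adjusted p = 0.00789). Mki67, which encodes the Ki-67 protein that coats mitotic chromosomes and marks cycling cells, had 14.4, 16.7, 18.9 and 36.5 CPM in Ctrl and 44.9 to 127 CPM with a median of 80.6 in CKO. Ctrl 4 stood above the other Ctrl libraries but below all CKO libraries, and the log2 fold change was 1.86 ± 0.33 (SE, edgeR adjusted p = 0.0152). Ncaph, a subunit of condensin I, had 0.739, 0.546, 1.22 and 0.775 CPM in Ctrl and 2.20 to 9.60 CPM with a median of 7.30 in CKO (log2 fold change 2.99, edgeR adjusted p = 0.00646). Ncapg, another condensin I subunit, had a log2 fold change of 2.41.

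Spindle motors and microtubule-binding proteins formed the largest role, and 11 of 12 genes were called higher, with all 12 fold changes positive. Kif11 (ENSMUSG00000012443, chr19:37376403-37421859, plus strand), the motor that pushes the spindle poles apart, had 1.80, 1.86, 3.22 and 1.88 CPM in Ctrl and 16.4, 11.7, 7.36, 18, 25.1 and 13.2 CPM in CKO. The means of 2.19 ± 0.689 CPM (SD, n = 4) and 15.3 ± 6.09 CPM (SD, n = 6) differed by a log2 fold change of 2.80 ± 0.35 (SE, edgeR adjusted p = 0.00245). Kif4, a chromosome-bound motor whose gene lies on the X chromosome, had 0.951, 0.656, 0.666 and 0.443 CPM in Ctrl and 3.95 to 12.9 CPM with a median of 5.88 in CKO. It had the lowest adjusted p of the 48 genes by edgeR, 0.00184, with a log2 fold change of 3.35 ± 0.41 (SE). Kif4 reached the filter's level in 0 Ctrl libraries, so it was tested only through its CKO values. Both motors kept the groups apart in every library.

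Dlgap5, a spindle-stabilising protein gene, had 0, 0.437, 0.888 and 0.221 CPM in Ctrl and 3.29 to 7.86 CPM with a median of 4.42 in CKO (log2 fold change 3.62, edgeR adjusted p = 0.00834). Kif15, a motor that can share the task of Kif11, had 2.22, 3.39, 2.67 and 3.43 CPM in Ctrl and 5.16 to 9.20 CPM with a median of 7.42 in CKO, a smaller log2 fold change of 1.32 ± 0.23 (SE, edgeR adjusted p = 0.0144). Ckap2l had 1.58, 1.53, 0.888 and 1.44 CPM in Ctrl and 3.08 to 10.6 CPM with a median of 7.66 in CKO (log2 fold change 2.37). These 3 genes also had groups that did not overlap. The remaining called genes of the role had log2 fold changes of 3.47 (Kif2c, a microtubule depolymerase), 3.25 (Ckap2), 2.03 (Tpx2, the activator of Aurka), 1.83 (Nusap1), 1.68 (Kif18b) and 1.18 (Hmmr). Spag5, a spindle and kinetochore protein gene, was not called at 1.65 and 5.77 CPM (edgeR adjusted p = 0.0803).

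All 8 genes of the central spindle and cytokinesis rose, and in each the groups did not overlap. Kif20a, a motor of the central spindle, had 2.01, 2.08, 1.55 and 1.55 CPM in Ctrl and 6.15 to 17.9 CPM with a median of 8.94 in CKO (log2 fold change 2.42 ± 0.33 SE, edgeR adjusted p = 0.00355). Cep55, which directs the final cut between daughter cells, had 0.423, 0.546, 0.666 and 0.554 CPM in Ctrl and 2.09 to 7.75 CPM with a median of 3.72 in CKO (log2 fold change 2.99 ± 0.44 SE, edgeR adjusted p = 0.00551). Low levels in every Ctrl library and severalfold higher levels in every CKO library were common to both.

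Racgap1 and Kif23 form the centralspindlin complex that bundles the central spindle and places the cleavage furrow. Racgap1 had 3.91, 2.40, 4.11 and 4.10 CPM in Ctrl and 8.14 to 17.8 CPM with a median of 12.5 in CKO (log2 fold change 1.73, edgeR adjusted p = 0.00675). Kif23 had 2.96, 2.73, 5.44 and 2.44 CPM in Ctrl and 6.92 to 21.6 CPM with a median of 10.8 in CKO (log2 fold change 1.83, edgeR adjusted p = 0.0197). Ect2, the exchange factor that centralspindlin recruits to activate RhoA, had 1.80, 0.656, 1.22 and 2.1 CPM in Ctrl and 2.64 to 14.3 CPM with a median of 8.99 in CKO (log2 fold change 2.60, edgeR adjusted p = 0.0136). Anln (anillin), the scaffold of the contractile ring, had the most counts of the role, with 8.77, 6.45, 11.2 and 4.32 CPM in Ctrl and 13.9 to 43.2 CPM with a median of 22.2 in CKO. The log2 fold change of Anln was 1.63 ± 0.35 (SE, edgeR adjusted p = 0.0341). Prc1, which cross-links antiparallel microtubules, and Kif20b, a further motor, had log2 fold changes of 2.04 and 1.41.

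The 2 genes placed in no role also rose. Pimreg, a gene of proliferating cells, had 0.845, 0.874, 0 and 0.775 CPM in Ctrl and 2.31 to 9.17 CPM with a median of 4.48 in CKO (log2 fold change 3.03 ± 0.60 SE, edgeR adjusted p = 0.0227). Parpbp, whose product restrains homologous recombination, had 0 to 0.656 CPM in Ctrl and 1.43 to 4.26 CPM in CKO (log2 fold change 3.45).

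**Figure D3:**
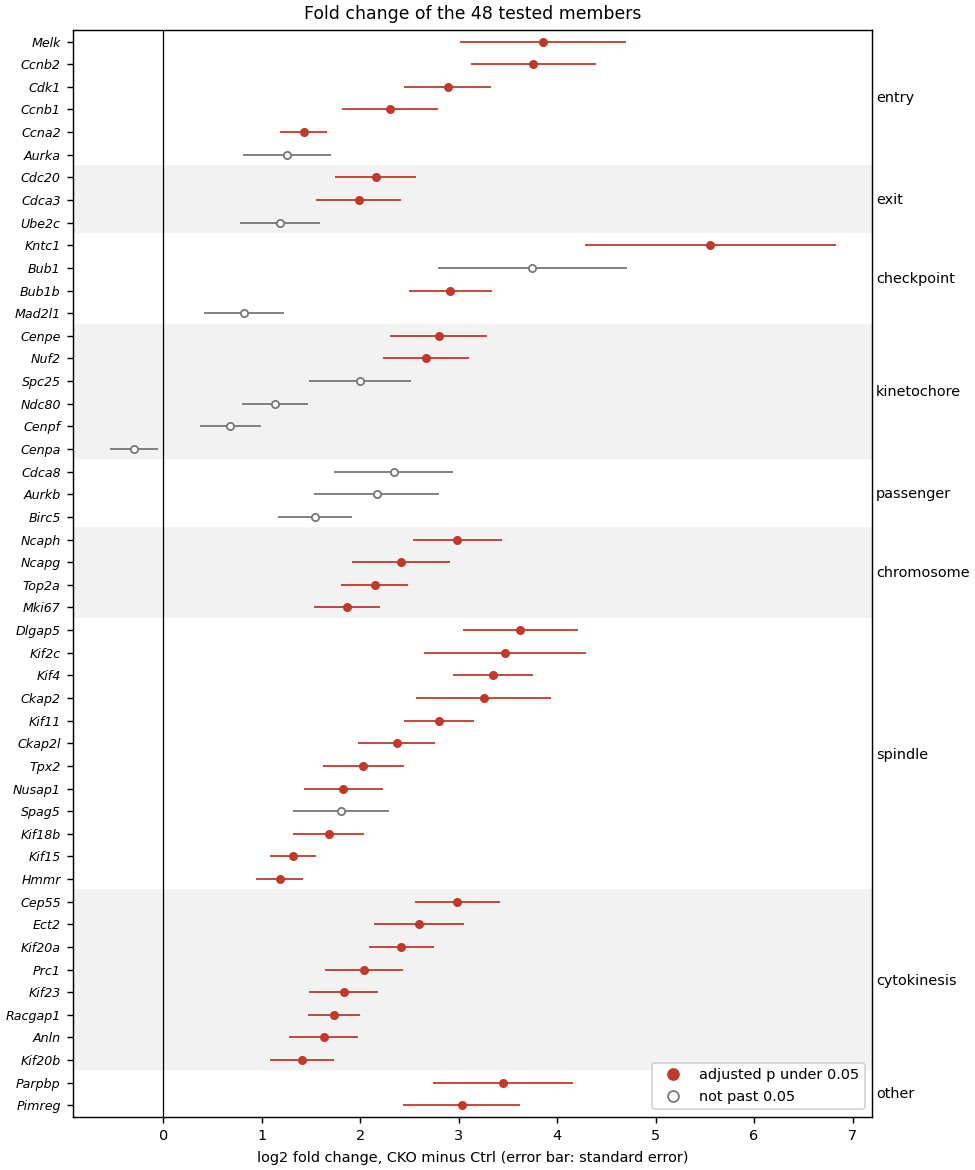
Log2 fold change, CKO minus Ctrl, of the 48 tested genes by role, with the standard error as a bar. Filled points passed an adjusted p of 0.05 by edgeR (36 genes) and open points did not (12 genes), and Cenpa at −0.30 is the single point to the left of 0.

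The higher coverage in CKO was spread along the main transcripts, the one with the highest mean TPM of each gene. For Cdk1 this transcript held 3 exons, and coverage along its other transcripts was not examined. Over the main transcripts of the 36 called genes, mean depth-scaled coverage was higher in CKO in 660 of 689 exons (95.8%) and lower in 13. In 21 of the 36 genes every exon of the main transcript was higher. Ccna2, Cdc20, Cdca8, Ncapg, Kif4, Prc1 and Kif20a each overlap a gene on the other strand with more than 5 CPM, and the kit named in the labels does not mark strand, so reads in the overlaps cannot be told apart. None of these 7 partner genes was called (edgeR adjusted p from 0.372 for Elovl1 to 0.984 for Lcorl), and Cdc23, the partner of Kif20a, had 57.0 CPM in Ctrl against 59.7 CPM in CKO. Per length, 21 of the 50 genes had a mean under 1 TPM in Ctrl and 0 did in CKO. Top2a was the most abundant in CKO, at 33.8 ± 11.9 TPM (SD, n = 6), followed by Cenpa (28.4 ± 6.78), Prc1 (17.0 ± 6.69), Ccna2 (16.0 ± 2.89) and Mki67 (15.6 ± 5.88), and these neighbours differed by less than their SDs except Cenpa and Prc1. The lowest in CKO were Ttk (1.03 ± 0.752 TPM) and Parpbp (1.24 ± 0.383 TPM). On the TPM scale 28 of the 50 genes had groups that did not overlap, against 1.77% of all tested genes.

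Other genes of the cell cycle were counted from 4 further lists, and their difference from the 50 genes was not tested. Of 44 further mitosis genes that were tested, 9 were called higher and 0 lower, with a median log2 fold change of 1.3, and at an unadjusted p under 0.05, 31 were higher and 1 lower. Over all 17752 tested genes at least 3001 were under that edgeR p in either direction. Aspm, a spindle pole protein gene, rose from 1.99 ± 0.806 to 15.5 ± 5.98 CPM (log2 fold change 2.95, edgeR adjusted p = 0.00252). Mastl, the Greatwall kinase, and Sgo2a, a protector of sister cohesion, had log2 fold changes of 1.77 and 1.47. Kifc1, a minus-end motor, had no count in any Ctrl library and 1.29 CPM in CKO, at least 3.95-fold higher than a floor of 3 counts per library. With Kifc1 at that bound the list's median stayed at 1.3. Pttg1 (securin), the inhibitor of sister separation, stood on the other side, with 51.7 ± 8.27 CPM in Ctrl against 17.4 ± 14.8 CPM in CKO, every CKO library below every Ctrl library and an edgeR adjusted p of 0.238. Pttg1 was singled out after its values were seen.

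Of 26 DNA replication genes 1 was called higher (Cdc6, which loads the replicative helicase, log2 fold change 1.52), with a median of 0.51. Of 13 G1 and S phase cyclins, their kinases and E2F factors 1 was called higher (E2f7, log2 fold change 1.27, edgeR adjusted p = 0.0464), with a median of 0.37. The call of E2f7 was lost in 18 of 22 alternatives, with library size scaling, other filters and the Xist covariate among them. Of 17 inhibitors and DREAM subunits 0 were called in either direction by edgeR, with 2 higher and 1 lower at an unadjusted p under 0.05, 1 called higher by DESeq2, and a median of 0.01. At that unadjusted edgeR p at least 3001 of all 17752 tested genes passed in either direction, a similar share. Rbl2 (p130), the pocket protein of DREAM in resting cells, had 68.1 ± 3.35 CPM in Ctrl against 62.5 ± 3.46 CPM in CKO (log2 fold change −0.12). The replication list was called 6 times higher with the Xist covariate and also 6 times by DESeq2. CHR matches were present in 61.1% of the 36 further mitosis genes with a promoter window, 18.2% of 22 replication genes, 30.0% of 10 G1 and S phase genes and 30.8% of 13 inhibitors and DREAM subunits.

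**Figure D4:**
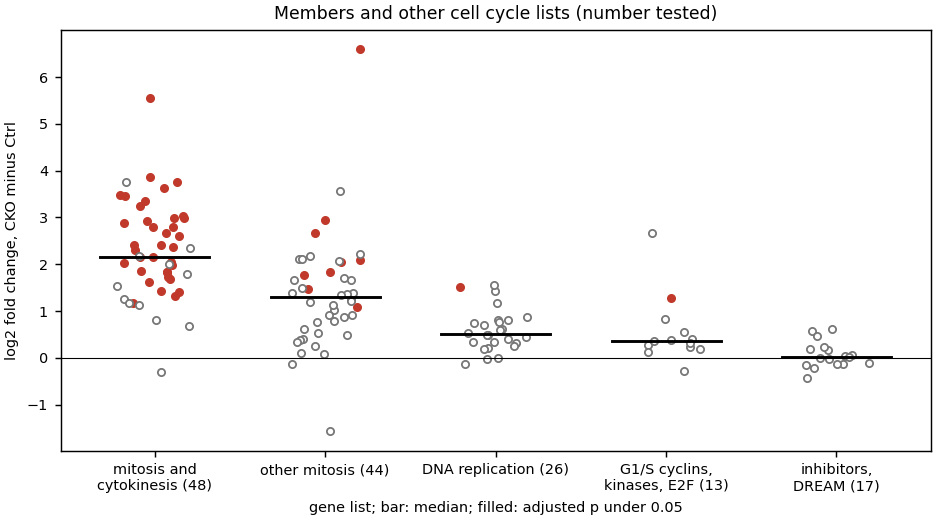
Log2 fold change, CKO minus Ctrl, of each tested gene in 5 lists (points; number tested in brackets), with the list's median as a bar and genes past an adjusted p of 0.05 filled. The medians are 2.16, 1.3, 0.51, 0.37 and 0.01 from left to right, and the highest point of the second list is Kifc1, which had no count in Ctrl, so that its fitted value is no estimate of size.

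The authors' deposited table gave the same comparison for the left atrial appendage, the pouch-like part of the left atrium, and a comparison of the 2 parts, for 48 of the 50 genes (Melk and Ttk were not among its 13646 genes). In the peri-pulmonary vein column of the authors' deposited table, 42 of the 48 genes were higher at a false discovery rate under 0.05 and 0 were lower, against 3.03% of all its genes called higher and 2.47% called lower. In the appendage column of the authors' deposited table, 47 were higher and 0 lower, where 16.8% of all genes were called higher and 17.9% lower. The 6 genes that did not pass in the former column were Aurka, Ube2c, Mad2l1, Cenpa, Cenpf and Ndc80, and Cenpa was the 1 gene that did not pass in the latter.

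The median log2 fold change in the authors' deposited table was 2.13 in the peri-pulmonary vein part and 3.42 in the appendage. In 44 of the 48 genes the appendage value in the authors' deposited table was the larger one, and Bub1, Kntc1, Kif20b and Parpbp were the exceptions. The share of all its genes with a larger appendage value was not counted. Many more of all genes were called higher in the appendage column (16.8%, against 3.03%), so a larger value there may not be particular to these genes. For Cdk1 the authors' deposited table gave 2.86 and 4.24, for Top2a 2.12 and 3.67, for Kif11 2.78 and 3.22, and for Kif2c 3.45 and 5.73, in the same order. Kntc1 had 5.53 and 4.14 in the authors' deposited table, and Cenpa −0.31 and 0.05. The difference between these columns was not tested, and whether both parts came from the same mice is not given in the sources used here.

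In the column of the authors' deposited table that compared the peri-pulmonary vein part with the appendage, 3 of the 48 genes were higher and 0 lower, against 8.19% and 4.06% of all its genes. The 3 genes in the authors' deposited table were Kif23 (log2 fold change 1.78), Cenpf (1.73) and Mki67 (1.36), and the median over the 48 was 0.25. At an unadjusted p under 0.05 the authors' deposited table had 7 genes higher and 1 lower. The share of all its genes at this looser threshold was not counted, but it is no smaller than 8.19% and 4.06%. These unadjusted counts are therefore no result about the 48 genes. Which libraries and which model this column used is not given in the sources used here, so it may share libraries with the other columns.

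**Figure D5:**
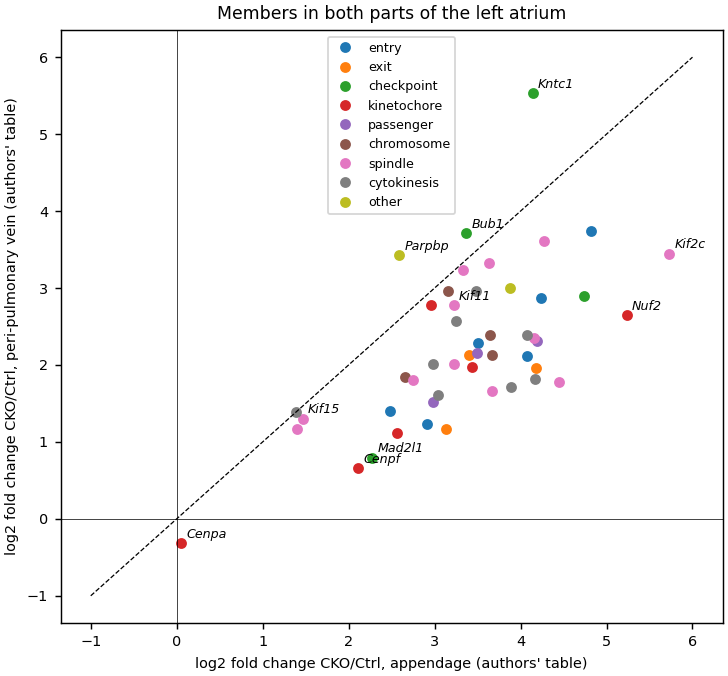
Log2 fold change, CKO over Ctrl, in the appendage (x axis) and the peri-pulmonary vein part (y axis), both from the authors' deposited table, for 48 genes coloured by role. The dashed line marks equal values, and 44 points lie below it. The share of all genes below it was not counted.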

How the data were processed

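RNA-seq of 10 libraries, 4 Ctrl and 6 CKO, was analysed. Per the submitters' processing notes the reads were aligned to mm10 with TopHat2 2.1.1 and assigned with StringTie 1.3.3, and edgeR 3.18.1 and limma 3.32.10 were used by the authors. The gene table deposited by the authors holds estimated counts made from StringTie coverage, not normalized. In each library each of the 54532 values equalled transcript coverage times length over 50, rounded up, so counts are not raw reads. The deposited transcript files give coverage and TPM per the file headers. The authors' deposited table gives log2 fold changes with p-values. The 10 columns of appendage counts belong to no sample of this series and were not used.

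Counts were fitted with edgeR 4.0.16 (filterByExpr with a minimum of 10 counts, TMM, glmQLFit, genotype as the only term, adjusted p under 0.05). Alternatives used DESeq2 1.42.0 and limma 3.58.1. The study's description gives 4 control and 6 mutant mice, 1 for each library, so p-values measure the spread between mice. The least different libraries of a group differed by a chi-square of 11.0 per degree of freedom, so none was a repeat. Same-numbered Ctrl and CKO libraries had correlated deviations of 0.0453, 0.116, −0.377 and 0.0959, so the numbers were not used as pairs. The 50 genes and the lists were chosen with earlier results of these data known. Every gene was named; Ctrl values by library and CKO values by library or as the lowest, median and highest were given for the 20 lowest adjusted p and the most abundant gene of each role, and up to 3 called genes of each other list. Counting intervals cover counting error only.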

Additional observations from a re-analysis of the deposited data

Results flagged for a closer look

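In each group the library farthest from the rest was compared with the spread of the group, for the 50 genes and their sum (102 groups of libraries). Of these, 15 had a library that stood apart by Dixon's criterion. Its chance rate of about 1 in 20 holds for independent, normally distributed values. The genes shared the same libraries and some Ctrl groups were mostly at 0, so the 15 cannot be set against that rate. In CKO the library was CKO 5 in all 6 cases, each time as the highest: Cdc20 at 15.2 CPM (others up to 7.48), Birc5 at 9.39 (up to 4.97), Cdca8 at 7.64 (up to 2.73), Nusap1 at 20.2 (up to 9.83), Hmmr at 16.2 (up to 10.1) and Kif20a at 17.9 CPM (up to 9.62). In Ctrl the 9 cases were spread over all 4 libraries. Ctrl 4 was highest for Top2a (18.4 CPM) and Bub1 (1.33 CPM, with the others at 0) and lowest for Cdca8 (0.332 CPM). Ctrl 1 was lowest for Ccnb1 (0.634 CPM) and highest for Ttk (0.317 CPM, others at 0). Ctrl 2 was highest for Kntc1 (0.328 CPM, others at 0) and lowest for Racgap1 (2.40 CPM). Ctrl 3 was highest for Kif11 (3.22 CPM) and lowest for Pimreg (0 CPM). Several of these Ctrl values rest on a few counts.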

How the results depend on the processing

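None of the 50 genes was called lower under any alternative run, and no log2 fold change of a named gene reversed. The 36 genes called higher numbered 28 to 43 with DESeq2, other scaling, other filters, the Xist covariate, TPM or summed rows, and 24 without both airway libraries. The count was 20 in the 8 libraries with shared replicate numbers and 3 without the libraries with B cell transcripts, both chosen after seeing the data. Leaving out each library gave 14 to 40, and 12 of the 36 genes stayed called in each of these fits. All genes called numbered 497, 1132 with DESeq2, 234 in the 8 libraries, 166 without the B cell libraries, and 190 to 607 with 1 library left out. With library size only as scaling, 44.1% of calls were higher in CKO, against 55.1%. The replicate number as a block left 2 of the 50 genes and 51 genes in all, 1 further mitosis gene and 0 replication and 0 G1 and S phase genes. Same-numbered libraries did not deviate together, so this is no sign of pairing.

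The further mitosis genes called higher (9) were 22 with DESeq2, 17 with the Xist covariate, 5 in the 8 libraries, 1 without the B cell libraries and 4 to 15 with 1 library left out. Replication genes (1) were 6 with DESeq2, 6 with the Xist covariate, 0 with TPM, 0 in the 8 libraries and 0 to 5 with 1 library left out. G1 and S phase genes (1) were 2 with DESeq2, 0 to 1 with 1 library left out, and 0 with library size only, no filter, mean CPM of at least 1, the Xist covariate, TPM, both airway libraries left out, the 8 libraries and the B cell libraries left out. Inhibitors and DREAM subunits called higher (0) were 1 with DESeq2. The cause of these moves was not tested beyond the smaller number of libraries. At about 0.11 CPM per count, genes under 1 CPM in Ctrl have fold changes that rest on few counts.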
